A study of Mus musculus with 22 samples.

Results

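The 8 genes described here, Top2a, Wdhd1, Cby1, Rbm3, Aldh18a1, Ccdc88c, Apobec3 and Tmem139, were chosen because their use of alternative 3′ ends differed between sorted cell types of the mouse colon crypt. They are 8 of the 5143 genes, and their 9 transcripts are 9 of the 5559 transcripts, that were listed in at least 1 of the 5 tables of 3′ end use. Each table set stem cells against 1 other cell type, and the measured value was the percentage of distal polyadenylation site usage index (PDUI), the share of a transcript that runs to its distal end, written from 0 to 1. The genes were chosen by their measured PDUI in all 5 tables, so PDUI is given below as a description without a test. Tests were made on gene counts and exon skipping, which did not choose them directly. A PDUI value needs read coverage, so the choice also favoured genes with reads in Stem.

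Most mammalian genes can be cleaved and polyadenylated at more than a single site, and the choice of site sets how much of the 3′ untranslated region (3′ UTR), or even of the coding sequence, the messenger RNA keeps. A cleavage site usually follows a hexamer, AATAAA or ATTAAA, that the cleavage and polyadenylation complex binds. The 3′ UTR carries binding sites for microRNAs and RNA-binding proteins, and proliferating cells are known for frequent use of proximal sites. In the colon crypt, stem cells at the base divide and give rise to absorptive and secretory progenitors, which mature into enterocytes and into goblet, tuft and enteroendocrine cells.

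All 22 libraries were bulk RNA-seq of live Epcam+, Cd31-, Cd45- epithelial cells from the colons of wild-type male C57BL/6N mice aged 5 to 7 weeks, with no treatment or transgene. Stem cells (Stem, n = 3) were sorted as highest for Cd44, low for Cd24 and Ckit-. Absorptive progenitors (AbsPro, n = 3) had medium to high Cd44, low Cd24 and no Ckit. The SecPDG gate (n = 4), which holds secretory progenitors and deep crypt secretory cells and perhaps a few goblet cells, had, by its labels, high Cd44 with medium Cd24 and Ckit. Tuft cells (n = 5) were Ckit+ with high Cd24, enterocytes (Ent, n = 5) had low or no Cd44 and no Cd24, and enteroendocrine cells (EEC, n = 2) had low or no Cd44 with Cd24. All but the Stem and AbsPro libraries came from pools of several mice. In these bulk samples, fewer cells of a type and less RNA per cell cannot be told apart.

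Gene counts summed to between 4122122 and 22462518 per library. Of the uniquely aligned reads that the counting placed in a gene, in more than 1 gene or in none, those in none made up 45.2% to 48.5% in Stem, 66.8% to 83.1% in Ent and 64.5% to 89.7% in EEC. The labels were checked against markers. The summed normalized count of 5 stem markers was 12211 to 15991 in Stem and at most 7399 elsewhere, and that of 6 tuft markers was 24553 to 66567 in Tuft and at most 7986 elsewhere. The 6 secretory and goblet markers summed to 748043 to 1097980 in Tuft, overlapping the range of 765947 to 3159450 in SecPDG. The 12 immune markers summed to 211 to 240 in Stem, 1473 to 3517 in Tuft, 497 to 1077 in Ent and 653 to 2770 in EEC. In Tuft most of the sum was Ptprc, with a mean of 1671. By the count test described below, 1 of the 12 was higher than in Stem in each of Tuft, Ent and EEC. None of the 12 was at 0 in every library of Stem, Tuft or Ent, and 1 was at 0 in both EEC libraries. All 4 endothelial markers were called higher than in Stem in Tuft, Ent and EEC, and none in AbsPro or SecPDG. They summed to 74 to 164 in Stem, 231 to 715 in Tuft, 464 to 1158 in Ent and 1303 to 1858 in EEC. Of 8 stromal markers, 1 was called higher in AbsPro, 1 in Tuft, 4 in Ent and 4 in EEC, and none in SecPDG.

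The sequences at the annotated ends and at the predicted proximal ends are shown first. Hexamers were common at the former and rare at the latter. The shares were near those over all transcripts, given below, so the contrast is not particular to these genes. Coordinates are those of mm10 (GRCm38), sequences were read from GENCODE M21 transcripts of that build, and capitals mark an AATAAA or ATTAAA hexamer. At the distal end, 7 of the 9 transcripts hold such a hexamer in the last 50 bases.

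Top2a distal end, chr11:98992952-98992981, minus strand: attttgtactttAATAAAtcttctaaacaa
Wdhd1 distal end, chr14:47240947-47240976, minus strand: gtcttctgaataAATAAAactttctcattt
Cby1 distal end, chr15:79667630-79667659, plus strand: actcttttttttATTAAAcggtgttcaata
Rbm3 distal end, chrX:8142371-8142400, minus strand: tttatggagctaATTAAAagatgaaacctg
Aldh18a1 distal end, chr19:40550262-40550291, minus strand: ccctttttgagaAATAAAattcttataaaa
Ccdc88c distal end, chr12:100911527-100911556, minus strand: ggacagggctgtAATAAAgtggaaaggaat
Apobec3 distal end of the shorter model (NM_001347041), chr15:79907874-79907903, plus strand: gataaatacataAATAAAtggaagaagtca

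The hexamers end 13 to 24 bases before the annotated end of the exon. The exceptions are Tmem139 and the longer Apobec3 model (NM_001160415), whose last 50 bases hold neither hexamer. Over all transcripts of the Stem and AbsPro table that could be matched to GENCODE, 78.2% held a hexamer in the last 50 bases, and 13.2% held its reverse complement, TTTATT or TTTAAT.

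At the predicted proximal end, a hexamer lay within 100 bases on either side in 2 of the 9 transcripts. The longer Apobec3 model and the shorter one share the hexamer printed above: it ends 3 bases after the proximal site predicted for the longer model and 15 bases before the annotated end of the shorter model. A further hexamer lies before it, at bases 557 to 562 of both models. The PDUI of the shorter model therefore compares an earlier end with the end near these hexamers. The PDUI of the longer model compares the end near these hexamers with a later one. In Rbm3, an ATTAAA ends 33 bases after the predicted site.

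Rbm3 near the proximal site, chrX:8142497-8142526, minus strand: gagatgttttttATTAAAgatcaccatcct
Top2a up to the proximal site, chr11:98993175-98993204, minus strand: gactctactcgggatgccttcccaacacga
Wdhd1 up to the proximal site, chr14:47241611-47241640, minus strand: tgtcagcgtttgcatttaagcaggagtaaa
Ccdc88c up to the proximal site of the AbsPro table, chr12:100913516-100913545, minus strand: tccccagagcctgtctctgggtagacccag
Tmem139 up to the proximal site, chr6:42263900-42263929, plus strand: agtctgaaaaggcgagtgggctcagagggg

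The last 4 of these sequences are shown because no AATAAA or ATTAAA lies within 100 bases of these sites on the transcribed strand, as is also true of Cby1, Aldh18a1 and the shorter Apobec3 model. Among all matched transcripts of the AbsPro table, 21.7% held a hexamer in the same window around the predicted site and 18.2% held its reverse complement. A window without these letters says nothing about other signals.

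The 9 transcripts also differ in where the predicted site falls in the exon. For each of them the measured region began at the start of the last exon, as it did in 96.8% of the matched transcripts of the AbsPro table. The site lay in the 3′ UTR in Top2a, Wdhd1, Cby1, Rbm3, Aldh18a1 and both Apobec3 models, and in the coding sequence in Ccdc88c and Tmem139. In Ccdc88c, coding sequence fills bases 1 to 993 of a last exon of 2283 bases, and the site lay at base 290 in the AbsPro table and at bases 916 and 918 in the Tuft and Ent tables. In Tmem139, coding sequence fills bases 1 to 397 of 828, and the site lay at base 202. In Wdhd1, Aldh18a1, Tmem139 and the shorter Apobec3 model, the site lay exactly 201 bases from the exon start, a distance shared by 35.1% of all transcripts of the AbsPro table. This makes the site base 202 of the exon. A distance of 201 bases was the most common one over all the tables and was taken as the edge of the search for sites. Whether these genes have a 3′ end there was not tested. In Wdhd1, coding sequence without its stop codon ends at base 198, and in Aldh18a1 it ends at base 179. No exon of another annotated gene, on either strand, overlapped these 8 last exons.

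**Figure D1:**
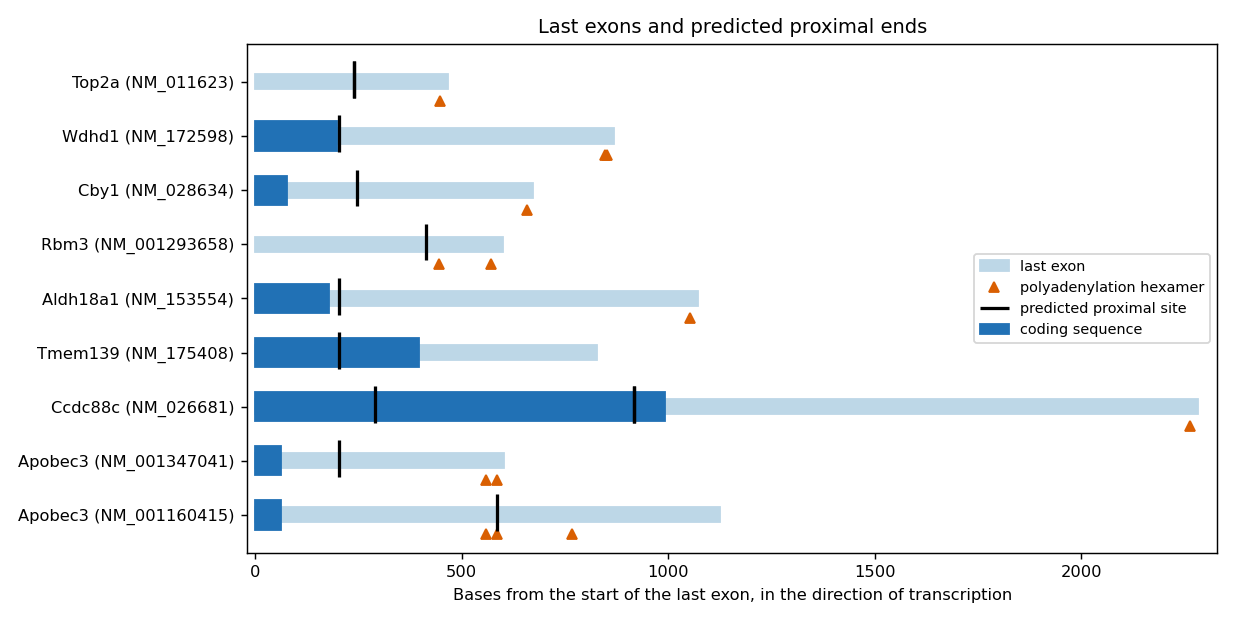
Last exon of each of the 9 transcripts, with bases from its start in the direction of transcription on the x axis; the pale bar is the exon, the dark bar coding sequence, the vertical line each predicted proximal site and the triangle each AATAAA or ATTAAA. The sites of Wdhd1, Aldh18a1, Tmem139 and the shorter Apobec3 model all sit at base 202, those of Ccdc88c and Tmem139 fall within coding sequence, and a triangle lies near the site only in Rbm3 and the longer Apobec3 model.

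In absorptive progenitors, most of these genes had a higher PDUI at their predicted sites than in stem cells. In AbsPro, 7 of the 8 genes were measured, and PDUI ranges of the 2 cell types lay apart in 6 of them. PDUI was higher in AbsPro in Wdhd1, Cby1, Rbm3, Ccdc88c and Tmem139 and lower in Apobec3. Over all 4976 transcripts with at least 2 values in each cell type, the ranges lay apart in 8.66%, with 4.9% higher and 3.76% lower in AbsPro; since these values chose the genes, nothing is read from the comparison. The values of a cell type could not be tied to numbered libraries, so they have no order here and were not joined to gene counts library by library. The Stem values were the same in all 5 tables wherever the site was the same.

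Top2a, the type II DNA topoisomerase that untangles chromosomes in dividing cells, had Stem PDUI values of 0.10, 0.12 and 0.36. The AbsPro values were 0.54, 0.58 and 0.36, so that 1 of them met the highest Stem value. SecPDG gave 0.18, 0.50, 0.80 and 0.35, and Tuft gave 0.23, 0.47, 0.76, 0.40 and 0.47. The mean was 0.193 ± 0.145 (SD, n = 3) in Stem and 0.493 ± 0.117 (SD, n = 3) in AbsPro. It reached 0.458 ± 0.263 (SD, n = 4) in SecPDG and 0.466 ± 0.191 (SD, n = 5) in Tuft. All 3 means lay above that of Stem, while every range overlapped or met the Stem range, and AbsPro, Tuft and SecPDG did not differ beyond their spread.

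Wdhd1, a replisome protein that links the helicase to DNA polymerase alpha, had low PDUI in Stem, with 0.19, 0.21 and 0.11. In AbsPro the values were 0.74, 0.54 and 0.22, and the lowest of them lay just above the highest Stem value. In SecPDG they were 1.00, 0.16 and 0.38, with 1 library lacking a value. The SD of the SecPDG values, 0.436, was larger than the difference of 0.343 between the SecPDG and Stem means.

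The pair of Wnt regulators went in the same direction in AbsPro. Cby1 encodes Chibby, which binds beta-catenin and opposes its transcriptional activity. Its Stem values of 0.16, 0.55 and 0.42 lay below AbsPro values of 0.81, 0.79 and 0.65, and overlapped SecPDG values of 1.00, 0.50, 0.59 and 0.48. In the mature types the Cby1 means were below those of the progenitors, at 0.34 ± 0.25 (SD, n = 4) in Tuft and 0.27 ± 0.15 (SD, n = 3) in Ent, against 0.377 ± 0.199 (SD, n = 3) in Stem. Among the 5 cell types in which Cby1 was measured, the order from highest to lowest mean PDUI was AbsPro, SecPDG, Stem, Tuft and Ent. The ranges of each neighbouring pair in that order overlapped.

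Ccdc88c encodes Daple, a Dishevelled-binding protein of noncanonical Wnt signalling. At the site of the AbsPro table its PDUI was 0.63 and 0.70 in the 2 Stem libraries with a value and 1.00 in all 3 AbsPro libraries. The Tuft and Ent tables used sites much further along the exon, so their values cannot be set beside those of AbsPro. There, Stem gave 0.59 and 0.74 in both tables, Tuft gave 0.80, 0.59, 0.18 and 0.89, and Ent gave 0.20, 0.89 and 0.17, with overlap in both.

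Rbm3, a cold-inducible RNA-binding protein, had Stem values of 0.21, 0.63 and 0.63 and AbsPro values of 0.70, 0.93 and 0.78. SecPDG values of 0.31, 0.67, 0.92 and 0.59 overlapped the Stem range. The Stem SD of 0.242 compares with a median Stem SD of 0.0964 over all transcripts of the AbsPro table.

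Aldh18a1, the mitochondrial enzyme that makes the precursor of proline and ornithine from glutamate, was not listed in the AbsPro table. Its Stem values were 0.60, 0.69 and 0.86, and PDUI was 1.00 in all 4 SecPDG and all 5 Tuft libraries. Of the 5 genes measured in Tuft it was the only one whose range lay apart from Stem, as did 5.04% of all transcripts there. In SecPDG the ranges lay apart in Aldh18a1 and Apobec3, 2 of the 6 genes measured, against 6.7% of all transcripts.

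Tmem139, which encodes a small membrane protein, had Stem values of 0.69 and 0.68 and a PDUI of 1.00 in all 3 AbsPro libraries. The EEC table gave a single value of 1.00, so no range could be compared there, and ranges lay apart in 32.2% of the 735 transcripts that allowed it. In the Ent table neither of the 2 genes measured, Cby1 and Ccdc88c, stood apart, against 7.64% of all transcripts.

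Apobec3, a cytidine deaminase that restricts retroviruses, was the only one of the 8 with a lower mean PDUI in the progenitors, and this held for its shorter model. For that model, Stem gave 1.00 in all 3 libraries, AbsPro gave 0.46, 0.62 and 0.69, and SecPDG gave 0.76, 0.72, 0.91 and 0.75. The AbsPro values lay wholly below those of SecPDG. Tuft values were 0.12, 0.77, 1.00, 1.00 and 0.90, so 2 of the 5 equalled Stem and 1 fell far below the rest. For the longer model, Stem gave 0.02, 0.09 and 0.24, AbsPro 0.22, 0.39 and 0.22, SecPDG 0.06, 0.18, 0.20 and 0.15, and Tuft 0.16, 0.04, 0.37 and 0.22, with every range overlapping Stem. The differences of the means from Stem for the longer model were 0.16, 0.0308 and 0.0808, and for the shorter model -0.41, -0.215 and -0.242.

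**Figure D2:**
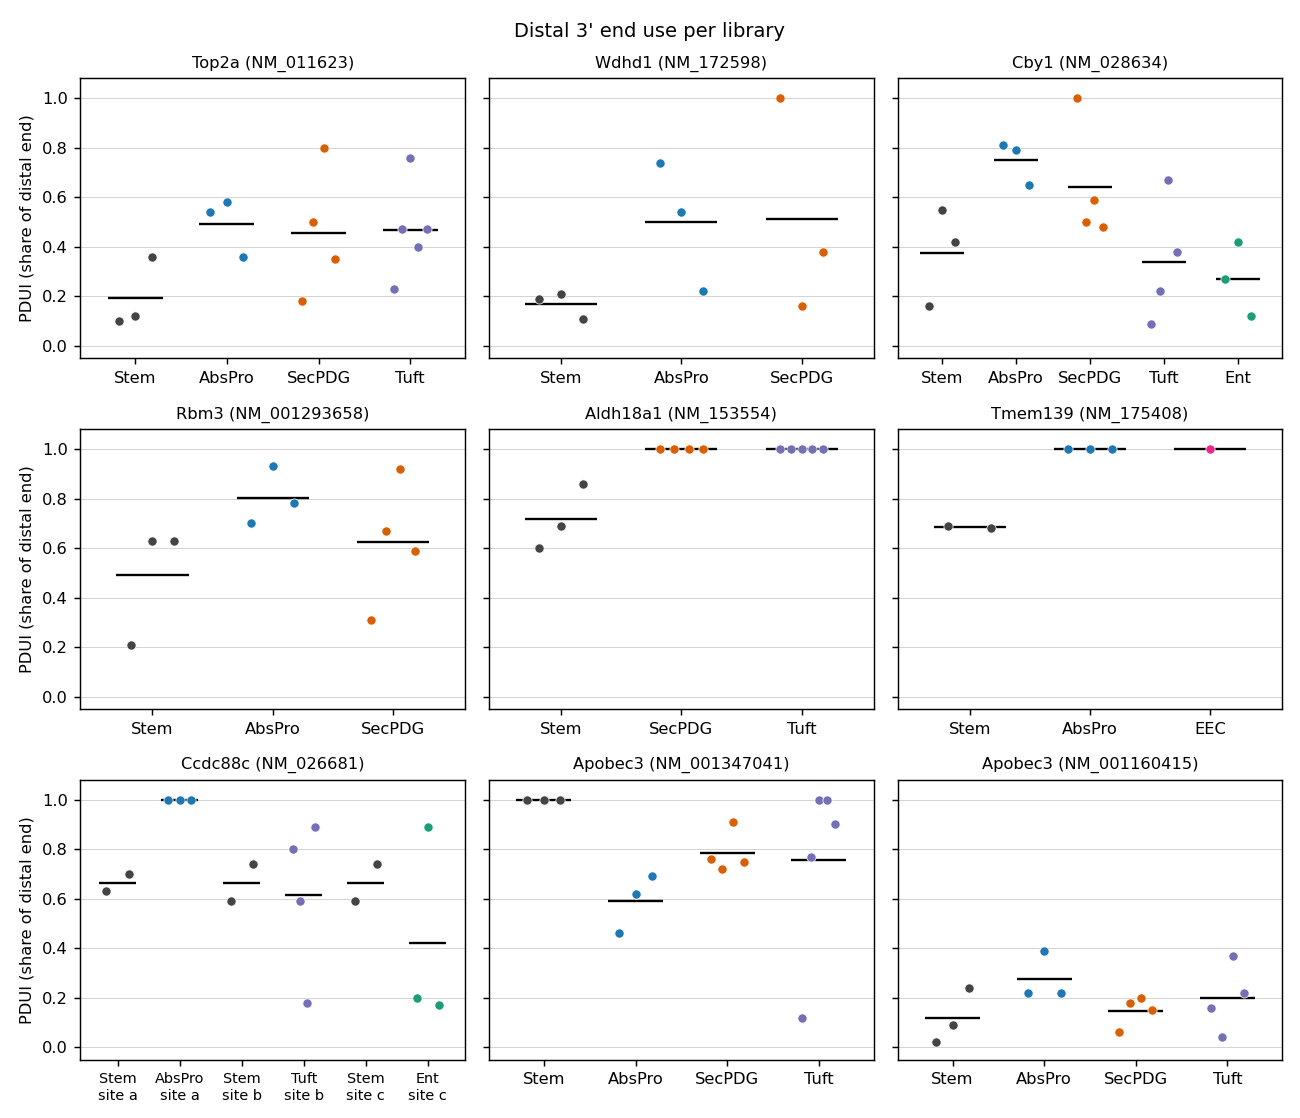
PDUI from 0 to 1 on the y axis for each of the 9 transcripts, with 1 point per library that had a value and a bar at the mean; for Ccdc88c, sites a, b and c are those of the AbsPro, Tuft and Ent tables. Points at 1.00 fill AbsPro in Ccdc88c and Tmem139, SecPDG and Tuft in Aldh18a1 and Stem in the shorter Apobec3 model, while Top2a, Wdhd1, Cby1 and Rbm3 spread widely within cell types.

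Gene counts are reported next: few of the 8 changed in progenitors, and most were lower in enterocytes and enteroendocrine cells. Counts did not choose the genes directly, but the authors ran DaPars with a coverage minimum. A listed gene therefore had enough reads in Stem and in the other cell type. None of the genes called lower in Ent or EEC had a PDUI listed in that cell type, so these calls are not independent of the choice. A gene was called changed at an edgeR adjusted p under 0.01, adjusted over the 22781 genes tested, if it also had a mean of at least 50 normalized counts. None of the 8 passed in AbsPro against Stem, where 0.588% of all genes did. With edgeR, 3 of the 8 had an unadjusted p under 0.05, namely Top2a, Wdhd1 and Tmem139, and DESeq2 also called none. In SecPDG only Aldh18a1 passed, against 4.97% of all genes, and in Tuft none passed, against 12.1%. For Tuft, edgeR gave an unadjusted p under 0.05 for Top2a, Wdhd1, Rbm3 and Ccdc88c, and DESeq2 called none.

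In Ent, 5 of the 8 genes passed, all lower than in Stem, against 22.2% of all genes in either direction and 11.5% lower. In EEC, 5 passed, again all lower, against 19.9% of all genes and 9.13% lower. The genes were Top2a, Wdhd1, Rbm3 and Apobec3 in both, with Aldh18a1 in Ent and Ccdc88c in EEC. The 2 comparisons share the Stem libraries. A call needed a mean of at least 50 normalized counts, which 13188 genes reached, all 8 among them. Of these genes, 5057 passed in Ent, 2609 of them lower, and 4541 passed in EEC, 2080 of them lower. Among genes that could be called, the shares are therefore higher than those given over all genes. Over all genes reaching 50 normalized counts on average, the median log2 fold change stood at -0.30 in Ent and -0.30 in EEC and became 0.35 and 0.48 with DESeq2 size factors.

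Top2a had 4914, 8390.2 and 8667 normalized counts in Stem. AbsPro had 2911, 3327 and 4616, SecPDG 7827, 8249, 8916 and 9301, and Tuft 3813, 3913, 3990.1, 3288 and 6005. The mature types were far lower, with 436, 754, 533, 1245 and 1173 in Ent and 304 and 107 in EEC. Ent and EEC lay wholly below every other cell type, AbsPro lay wholly below Stem and SecPDG, and Tuft overlapped Stem.

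The log2 fold change of Top2a from Stem was -3.14 (SE 0.35) in Ent, with an edgeR adjusted p of 3.28e-10, and -5.25 (SE 0.60) in EEC, with an edgeR adjusted p of 3.6e-10. In AbsPro it was -1.02 (SE 0.37), with an edgeR adjusted p of 0.236. The 3 Ent libraries with the most reads outside genes, 81% to 83.1%, had 436 to 754 counts of Top2a, and the other 2, with 66.8% and 68.8%, had 1245 and 1173. The part of read assignment in these values was not tested.

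Wdhd1 had 740.5, 705 and 858 normalized counts in Stem. It had 372, 489.6 and 414 in AbsPro, 493, 536, 424 and 684 in SecPDG, and 422, 543, 406, 363 and 521 in Tuft. Ent had 241, 156, 165, 285 and 262, and EEC had 212 and 136. Each cell type lay wholly below Stem.

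The test passed in Ent, with a log2 fold change of -1.80 (SE 0.30) and an edgeR adjusted p of 4.47e-06. It also passed in EEC, with -2.19 (SE 0.45) and an edgeR adjusted p of 8.21e-05. With only the EEC and Stem libraries in the fit, the EEC call was lost, with an edgeR adjusted p of 0.0195. In AbsPro, where Wdhd1 PDUI was higher, its count had a log2 fold change of -0.85 (SE 0.31, edgeR adjusted p = 0.234).

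Genes that work beside Top2a and Wdhd1 were low in the same cell types. Of 20 DNA replication genes, 19 fell in Ent and 19 in EEC, 11 in Tuft and 1 each in AbsPro and SecPDG, with none higher. Their median log2 fold change was -2.39 in Ent and -3.07 in EEC. Mcm6, a subunit of the replicative helicase, had -3.39 in Ent with an edgeR adjusted p of 1.36e-11. Of 16 genes of chromosome condensation and mitosis, 15 fell in Ent, 15 in EEC, 5 in Tuft and none in the progenitors, and the median was -2.24 in Ent and -3.61 in EEC. Ncapd2, a condensin subunit, had -2.78 in Ent with an edgeR adjusted p of 8.11e-10. With DESeq2 size factors 16 replication genes fell in Ent and 15 in EEC, and 14 and 12 mitotic genes did.

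Cby1 was measured at low counts and passed in no comparison. Stem had 454, 379 and 212 normalized counts, AbsPro 297, 394 and 189, and SecPDG 209.9, 385, 242 and 339. Tuft had 148 to 369.8, Ent 142 to 260.3 and EEC 244 and 59.5. All ranges overlapped that of Stem. The lowest adjusted p was in EEC, with a log2 fold change of -1.32 (SE 0.54, edgeR adjusted p = 0.0397).

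Ccdc88c had 2858, 2832 and 2984 normalized counts in Stem, 2948, 2372 and 2965 in AbsPro, and 2312, 3349.5, 2408 and 2758 in SecPDG. These overlapped, and the log2 fold change of AbsPro from Stem was -0.07 (SE 0.33, edgeR adjusted p = 1). Tuft had 1751, 1860.1, 1465, 1934 and 2289.6, all below Stem, and Ent had 1575, 1642, 1301, 2886 and 2854. The 2 Ent libraries with the fewest reads outside genes had the 2 highest values, which met the Stem range. EEC had 992 and 676, the lowest of any cell type, with a log2 fold change of -1.81 (SE 0.42) and an edgeR adjusted p of 0.000395. With only the EEC and Stem libraries in the fit, this adjusted p was 0.0261 and the call was lost. In Ent the log2 fold change was -0.50 (SE 0.29, edgeR adjusted p = 0.134), and it turned to 0.01 with DESeq2 size factors.

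Of 12 other Wnt genes, 1 rose and 1 fell in SecPDG, 1 rose and 2 fell in Tuft, 2 rose and 5 fell in Ent, and 1 rose and 3 fell in EEC, with none in AbsPro. Axin2, a Wnt target and a negative regulator of the pathway, is also one of the stem markers above, and fell in all 4 of these, with a log2 fold change of -3.73 and an edgeR adjusted p of 1.38e-13 in Ent. Ctnnbip1, which like Cby1 binds beta-catenin and opposes its activity, rose in SecPDG by a log2 fold change of 1.57 (edgeR adjusted p = 0.000755) and in Tuft by 1.48 (edgeR adjusted p = 0.000635). Ccdc88a, the paralog of Ccdc88c, rose in EEC by 2.82 (edgeR adjusted p = 0.000307), where Ccdc88c fell. The median log2 fold change of the 12 was -0.77 in Ent and -0.72 in EEC, against -0.30 in both for all genes, and with DESeq2 size factors 3 rose and 3 fell in Ent.

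Rbm3 was similar in Stem and AbsPro, with 605, 581 and 689 normalized counts in Stem and 708, 338 and 644 in AbsPro. SecPDG had 214, 321, 291 and 415, and Tuft had 378, 358, 224, 361 and 371. Both lay wholly below Stem without passing the test, with log2 fold changes of -1.02 (SE 0.34, edgeR adjusted p = 0.0549) and -0.88 (SE 0.32, edgeR adjusted p = 0.0331). Ent had 136, 259, 188, 557 and 417, and EEC had 18.1 and 77.7, where the lower value stood on 10 reads.

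In EEC the log2 fold change of Rbm3 was -3.56 (SE 0.63), with an edgeR adjusted p of 8.69e-06. In Ent it was -0.99 (SE 0.33), with an edgeR adjusted p of 0.0091, and the call was lost when Ent 2, Ent 3 or Stem 1 was left out, with values of -0.93, -0.85 and -1.02. It was also lost with DESeq2 size factors, at -0.50 and an adjusted p of 0.0824, with library totals (0.0494), with only the Ent and Stem libraries (0.0277), with edgeR's older method (0.0358) and by DESeq2's own test (0.107). The call was made in 9 of 17 settings. Cirbp, the other cold-inducible RNA-binding protein of the family, passed in no comparison, with log2 fold changes from -0.49 in SecPDG to 0.13 in EEC.

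Aldh18a1 was highest in the SecPDG gate. It had 1423, 1464 and 1364 normalized counts in Stem and 1228, 941 and 1085 in AbsPro. SecPDG had 3212, 3799.6, 2896 and 2629, wholly above every other cell type. Tuft had 1648, 1704, 1427, 1278 and 2183, which overlapped Stem, while Ent had 378, 385, 309.6, 608 and 525 and EEC had 869.6 and 579, both wholly below Stem.

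The log2 fold change of Aldh18a1 in SecPDG from Stem was 1.14 (SE 0.30), with an edgeR adjusted p of 0.00646. Between SecPDG and AbsPro it was 1.53 (SE 0.30), with an edgeR adjusted p of 0.000283; there, 2 of the 8 genes passed against 3.72% of all genes. The call against Stem was lost in 5 of the 7 fits that left out a library, namely SecPDG 1, 2 or 3 and Stem 1 or 3, with edgeR adjusted p values from 0.0113 to 0.0348, and the call against AbsPro was kept in each such fit. In Ent it was -1.68 (SE 0.30), with an edgeR adjusted p of 1.04e-05. In Tuft, where PDUI was 1.00 as in SecPDG, the log2 fold change of the count was 0.22 (SE 0.28, edgeR adjusted p = 0.54).

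Pycr1, which makes proline from the product of Aldh18a1, was the gene of the proline and ornithine list that rose with it. Its log2 fold change was 3.60 in SecPDG (edgeR adjusted p = 1.92e-06), 3.73 in Tuft (edgeR adjusted p = 2.81e-07) and 2.75 between SecPDG and AbsPro (edgeR adjusted p = 0.000112). It was the only one of the 7 tested genes that rose in SecPDG, where DESeq2 size factors gave 2, and none changed in AbsPro. Prodh, which degrades proline, had log2 fold changes of -1.33 in Tuft (edgeR adjusted p = 0.00108) and -1.11 in Ent (edgeR adjusted p = 0.00232). Oat and Got2, mitochondrial aminotransferases, fell with Prodh in Ent and with Pycrl in EEC, 3 of the 7 in each, and none rose there, while 1 rose in EEC with DESeq2 size factors or library totals.

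Apobec3 counts were lowest in Ent and EEC, where its PDUI was not listed. Stem had 779, 1012 and 703 normalized counts and AbsPro had 639, 708 and 703, with overlap. SecPDG had 1000.2, 1904, 1243 and 1226, wholly above AbsPro, with a log2 fold change of 0.97 (SE 0.31, edgeR adjusted p = 0.0508). Tuft had 579, 776, 519, 687 and 789, while Ent had 214, 171, 79.7, 396 and 267 and EEC had 221 and 160.2, both wholly below all other cell types.

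The log2 fold change was -1.89 (SE 0.33) in Ent, with an edgeR adjusted p of 8.08e-06, and -2.16 (SE 0.48) in EEC, with an edgeR adjusted p of 0.00025. With only the EEC and Stem libraries in the fit, the EEC call was lost, with an edgeR adjusted p of 0.0211. Apobec3 is also expressed in immune cells, and the immune marker sums given above were higher in Ent and EEC than in Stem, where Apobec3 was higher. Their part in its counts was not tested. Of 4 other deaminases of the family, Apobec1, the RNA editor of apolipoprotein B, rose in Tuft, Ent and EEC, by 4.21 in Ent (edgeR adjusted p = 4.3e-08), and Apobec2 rose in EEC by 4.24 (edgeR adjusted p = 2.35e-06). None of the 4 changed in the progenitors.

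Tmem139 differed between the progenitors. Stem had 103, 266 and 259 normalized counts, AbsPro had 467, 449 and 454, and SecPDG had 9.45, 119, 119.6 and 194. AbsPro lay wholly above both. Tuft had 200.2, 107, 131, 117 and 142, Ent had 219.5, 396, 299, 563 and 372, and EEC had 233 and 522.

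Between SecPDG and AbsPro the log2 fold change of Tmem139 was -2.05 (SE 0.42), with an edgeR adjusted p of 0.000402. From Stem it was 1.11 in AbsPro (SE 0.40, edgeR adjusted p = 0.212), -0.95 in SecPDG (SE 0.45, edgeR adjusted p = 0.242), 0.82 in Ent (SE 0.38, edgeR adjusted p = 0.0551) and 0.88 in EEC (SE 0.48, edgeR adjusted p = 0.119). With DESeq2 size factors the Ent and EEC values passed, at 1.35 with an edgeR adjusted p of 0.0011 and at 1.503 with 0.00408. The 6 enterocyte markers summed to 62181 to 95687 in AbsPro, 46777 to 67925 in Ent and 21061 to 131525 in EEC. They summed to 11222 to 22323 in Stem and 1638 to 2635 in SecPDG. Car1, with a mean of 67469 in AbsPro, made up most of the sum there. Of the 6 markers, 2 were called higher than in Stem in AbsPro, 5 in Ent and 4 in EEC, and 3 were called lower in SecPDG. None of the 6 was at 0 in every library of any cell type. Their part in Tmem139 was not tested.

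**Figure D3:**
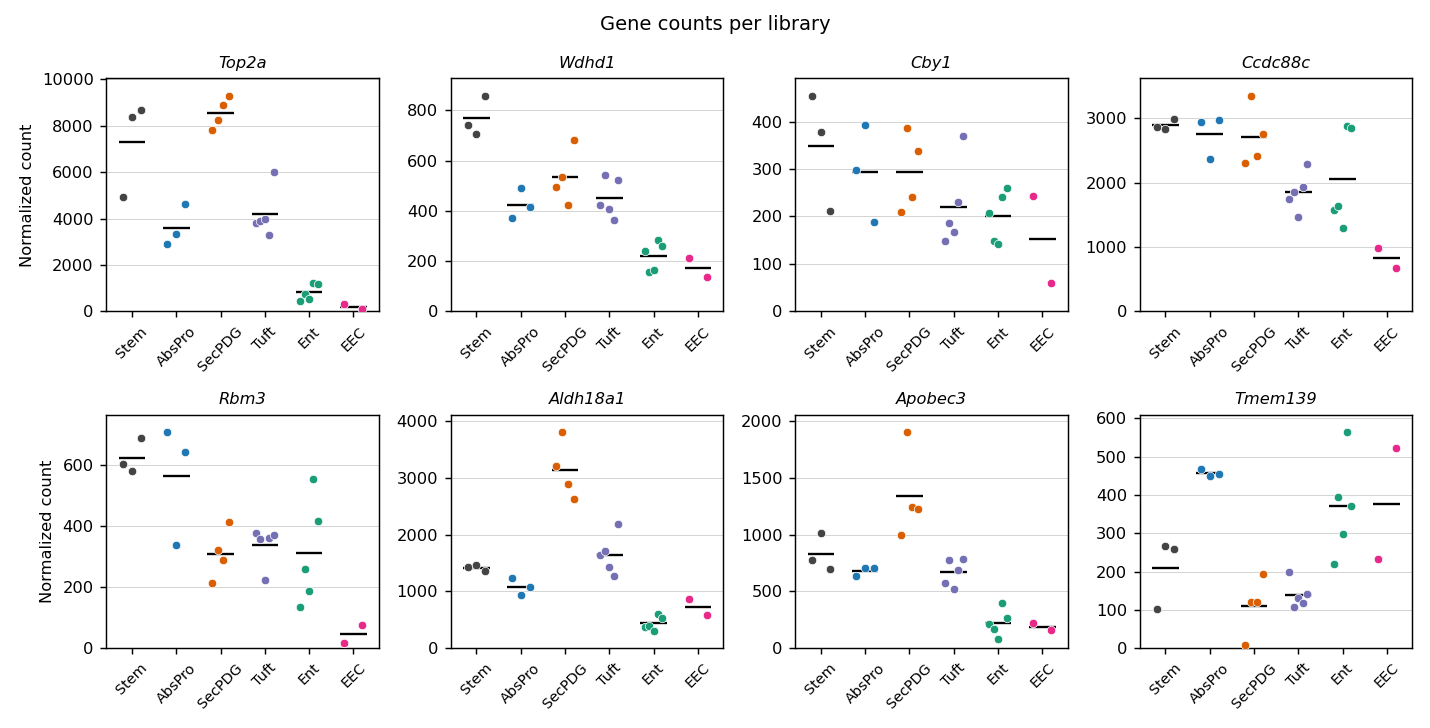
Normalized count on the y axis, from 0, for each of the 8 genes, with 1 point per library and a bar at the mean of each cell type. SecPDG stands above every other cell type in Aldh18a1, and AbsPro above Stem and SecPDG in Tmem139. Ent and EEC stand below all others in Top2a, Wdhd1, Aldh18a1 and Apobec3.

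**Figure D4:**
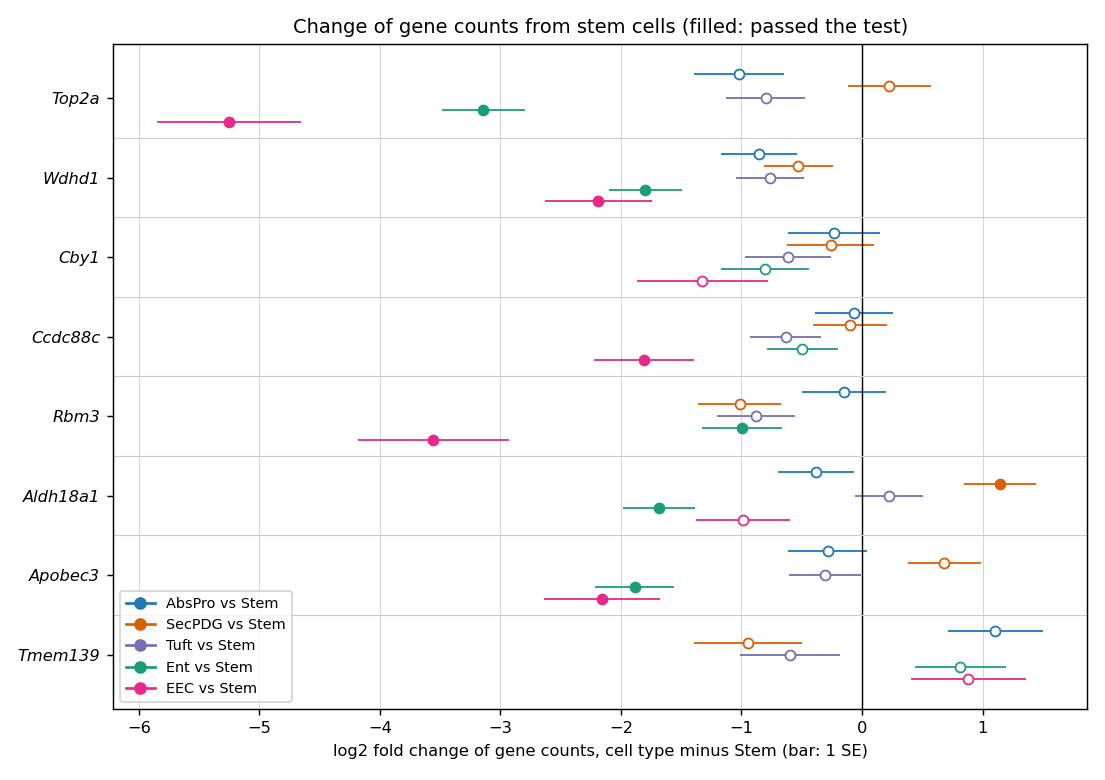
Log2 fold change of gene counts from Stem on the x axis for each of the 8 genes and 5 cell types, with bars of 1 SE and filled points where the edgeR adjusted p was under 0.01. The filled points are 5 in Ent and 5 in EEC, all to the left of 0, and Aldh18a1 in SecPDG at 1.14.

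PDUI and counts in AbsPro are set side by side here without a test. Of the 5 genes with higher PDUI in AbsPro, the log2 fold change of the count was -0.85 for Wdhd1, -0.23 for Cby1, -0.15 for Rbm3, -0.07 for Ccdc88c and 1.11 for Tmem139. For Apobec3, with lower PDUI, it was -0.28. For Top2a, whose mean PDUI was 0.3 higher in AbsPro with ranges that met, it was -1.02. None of the 7 passed the test, so no direction is read from these values.

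Factors that make 3′ ends were examined as a fixed list of 20 cleavage and polyadenylation genes. None changed in AbsPro, in SecPDG or between them, and Cpsf1, the largest subunit of the complex that holds the hexamer-binding proteins, fell in Tuft, with a log2 fold change of -1.16 (edgeR adjusted p = 0.00211). In Ent 12 fell and in EEC 6 fell, with none higher, and the medians were -1.06 and -0.91. Cstf2, which binds downstream of the cleavage site, fell in both, with -1.85 in Ent (edgeR adjusted p = 1.75e-06) and -2.57 in EEC (edgeR adjusted p = 4.51e-06). With DESeq2 size factors 7 fell in Ent and 3 in EEC, and with library totals 3 fell in SecPDG.

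Skipping of internal exons was listed for 5 of the 8 genes, in 18 rows over the 5 comparisons. Of the rows with enough counts to test, edgeR called none at an adjusted p under 0.05, as for all exons (0% in each comparison). Over all exons the unadjusted edgeR p was under 0.05 for 2 of 3641 in AbsPro, 28 of 4431 in SecPDG and 52 of 4359 in Tuft. It was under 0.05 for 86 of 3557 in Ent and 24 of 1413 in EEC. Each is fewer than chance alone would give, so this test could hardly call any exon, and its lack of calls says nothing about the 8 genes. The paper did call skipped exons between these cell types with rMATS. In the same order of cell types, limma called 0, 3, 20, 3 and 0. Aldh18a1 lacked an exon (chr19:40569033-40569177) in 5 of its counts in Stem, against 173 with the exon, and in none in the other cell types, against 81 in AbsPro and 381 in SecPDG. In AbsPro this gave an edgeR adjusted p of 0.796. Wdhd1 lacked an exon (chr14:47251918-47252032) in 9 counts in Stem, against 114 with it, and in 0 against 50 in AbsPro, with an edgeR adjusted p of 0.796. Top2a skipped an exon (chr11:98999162-98999347) in 2 counts in Tuft, against 1827, and in 0 against 4269 in Stem; limma called this event, with an adjusted p of 0.0469, and edgeR did not, with an adjusted p of 0.717.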

How the data were processed

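The authors aligned reads to mm10 with STAR 2.5.2a and counted them per gene with HTSeq 0.6.1p1 without regard to strand, and the deposited counts are raw. Sense and antisense reads therefore cannot be told apart. The authors ran DaPars, whose deposited PDUI is a fraction from 0 to 1 per transcript and library, and rMATS, whose deposited tables hold inclusion and skipping counts per exon. Columns of the authors' own comparisons (differences, p-values) were not used, nor were 78 columns of long and short transcript levels.

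Gene counts of all 22 libraries were fitted with edgeR 4.0.16 in R 4.3.3 (quasi-likelihood test, TMM scaling, its filter on low counts, cell type as the only term), and p-values were adjusted by Benjamini-Hochberg over 22781 genes. A gene was called at an adjusted p under 0.01 with a mean of at least 50 normalized counts. DESeq2 1.42.0 was an alternative. Exon counts were fitted with edgeR, each library's inclusion and skipping counts paired, for events with a median of at least 10 counts per cell type, at an adjusted p under 0.05. PDUI ranges were compared with at least 2 values per cell type and without a test. The fits were tested on simulated data. For exons these data had no spread between libraries beyond that of random counting, so they say little about the fit on the real counts.

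Sequences were read from GENCODE M21 transcripts, to which 91.4% of the transcripts of the AbsPro table matched with at most 25 bases of overhang, and AATAAA and ATTAAA were searched within 100 bases of the proximal site and in the last 50 bases. Genes named beside the 8 were taken from lists of their pathways or families (DNA replication, chromosome condensation and mitosis, Wnt signalling, cold-inducible RNA-binding proteins, proline and ornithine metabolism, AID/APOBEC deaminases, cleavage and polyadenylation) and marker lists. From these lists, examples among the called genes were chosen after their values were seen. The 8 genes and the lists were chosen with earlier results of these data known. Alternatives were other scalings, filters, thresholds, a replicate term, fits of only the 2 cell types compared, and leaving out each library. The sources used here do not say whether same-numbered libraries of different cell types share mice or sorts, and the correlations of their deviations did not meet the rule for pairing in any comparison, so numbers were not treated as pairs.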

Additional observations from a re-analysis of the deposited data

Results flagged for a closer look

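The count of Aldh18a1 changed from Stem differently in the 2 progenitors: the test of SecPDG against AbsPro gave a log2 difference of 1.53 (edgeR adjusted p = 0.000283), with 4 of 4 SecPDG libraries above every AbsPro library. The same test for Tmem139 gave -2.05 (edgeR adjusted p = 0.000402), with all 4 SecPDG libraries below every AbsPro library.

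In 3 of 34 groups of 4 or more values, 1 value lay far from the others, judged by its gap to the nearest value as a share of the whole range, and chance alone marks about 1 in 20 groups. The share was 0.739 for PDUI of the shorter Apobec3 model in Tuft, where 1 library had 0.12. It was 0.871 for the Rbm3 count in Tuft, where Tuft 3 had 224 and the others 358 to 378. It was 0.742 for the Top2a count in Tuft, where Tuft 5 had 6005 and the others at most 3990.1. Tuft 5 had 43.4% of reads outside genes, against 59.5% to 68% in the other Tuft libraries, and the part of this in its Top2a count was not tested.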

How the results depend on the processing

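Of the 8 genes, the number called by gene counts in AbsPro against Stem was 0, and 1 (Top2a) with only those 2 cell types in the fit. In SecPDG it was 1, and 2 with DESeq2 size factors or library totals, 3 with only the 2 cell types, 0 with edgeR's older quasi-likelihood method, and 0 to 1 when each library was left out. In Tuft it was 0, and 2 at an adjusted p under 0.05 or with only the 2 cell types. In Ent it was 5, and 4 to 6 when each library was left out. In EEC it was 5, and 2 with only the 2 cell types, and 5 to 7 when each library was left out, where a lone EEC library is assumed to vary like the other groups. Between SecPDG and AbsPro it was 2, and 4 with DESeq2 size factors or only the 2 cell types, and 1 with the older method. The number of all genes called moved in the same directions. Between SecPDG and AbsPro it went from 847 to 1352, 1649 and 506 in these settings. In SecPDG against Stem it went from 1132 to 1636, 2178 and 707. With only the 2 cell types it went from 134 to 456 in AbsPro and from 4541 to 1468 in EEC. These shifts are thus not particular to the 8 genes. The fits of only 2 cell types use fewer samples. What caused any of these shifts was not tested. edgeR's older method and limma for exons were added after seeing the data.

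A replicate block gave 2 in SecPDG (adding Rbm3, adjusted p = 0.00731), 2 in Tuft (Top2a, 0.0096, and Rbm3, 0.00392) and 6 in Ent (adding Cby1, 0.00963), against 1, 0 and 5 without it, by edgeR. Whether same-numbered libraries share mice or sorts is not given in the sources used here. The correlation of their deviations ran from -0.265 to 0.139, and was over 0.1 in 2 of 3 pairs of Stem with AbsPro, 2 of 3 with Ent, 1 of 2 with EEC and none of the others. The block raised the count of all called genes in Tuft from 2750 to 3882.

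By PDUI means at least 0.25 apart, 7 genes differed in AbsPro, 4 in SecPDG, 2 in Tuft and 1 in EEC, against 6, 2, 1 and 0 by ranges. The gene in EEC was Tmem139, on a single EEC value. Over all transcripts with at least 2 values per cell type, 7.88%, 7.44%, 5.16% and 19.7% differed so. PDUI chose the genes, so nothing is read from the comparison. With each value left out in turn, AbsPro ranged from 4 to 7 genes and SecPDG from 2 to 3, while Tuft gave 1 to 2 and Ent 0 to 1. For exons, limma called 1 event in Tuft and edgeR 0. The PDUI alternatives on coverage and on the most abundant row were not run, because the levels were not used.

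No called gene changed direction in any setting run. Those that did were near 0 and called in neither setting. Ccdc88c in Ent turned to 0.01 with DESeq2 size factors (0.00697) and 0.0036 by DESeq2's Wald test. Between SecPDG and AbsPro, Ccdc88c became 0.000275 with size factors, 0.084 without the low-count filter, 0.013 with only the 2 cell types and 0.0015 by the Wald test, and ran from -0.13 to 0.037 when each library was left out, turning without AbsPro 1, SecPDG 1 or SecPDG 3. Cby1 there became 0.079 without the filter and 0.0013 with the older method, and ran from -0.29 to 0.23, turning without AbsPro 2, SecPDG 1 or SecPDG 3. In AbsPro against Stem, leaving out each library gave -0.49 to 0.058 for Cby1, turning without AbsPro 3. It gave -0.34 to 0.12 for Rbm3 and -0.083 to 0.032 for Ccdc88c, both turning without AbsPro 2. Among all called genes, 48.4% were higher in Ent and 54.2% in EEC, and 75.6% and 77.5% with DESeq2 size factors. Depth behind each PDUI value was not used here, so no interval is given.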

Other observations

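The genes whose counts were most like those of each of the 8, by Pearson's r of log2 normalized counts over the 22 libraries among 13187 genes, are given as a description, since libraries of a cell type share their sort and depth. Wdhd1 was closest to Mcm2 (0.953) and Mcm6 (0.944), subunits of the replicative helicase. Top2a was closest to Slc12a2 (0.983), an ion cotransporter, and Hist1h1b (0.98), a linker histone made in S phase. Apobec3 was closest to Fen1 (0.957), a flap endonuclease of DNA replication, and Ubfd1 (0.955). Aldh18a1 was closest to Tuba1c (0.963), a tubulin, and Xpot (0.959), the tRNA exportin. Tmem139 was closest to Gpt (0.948), an alanine aminotransferase, and Pitpnm3 (0.922). Ccdc88c was closest to Lsm12 (0.958) and Tomm5 (0.941), Rbm3 to Emc6 (0.947) and Ascc2 (0.946), and Cby1 to Dcps (0.902), the scavenger decapping enzyme, and D10Wsu102e (0.897).

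By mean PDUI in Stem, AbsPro and SecPDG, over 2450 transcripts, the pattern of Wdhd1 was closest to Scap (0.143, 0.517 and 0.515), the escort of the sterol-responsive SREBP factors, and then to Top2a. That of Top2a was closest to Nrf1 (0.21, 0.473 and 0.46).

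An exon of Aldh18a1 (chr19:40579862-40580076) had 0 inclusion and 25 skipping counts in EEC against 172 and 0 in Stem, with an unadjusted p of 0.0225, an edgeR adjusted p of 0.855 and a limma adjusted p of 0.377.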
